A study of Mus musculus with 16 samples.

Results

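The miR-181 family was followed through its 7 listed mature members, 4 guide strands (mmu-miR-181a-5p, mmu-miR-181b-5p, mmu-miR-181c-5p and mmu-miR-181d-5p) and 3 opposite arms (mmu-miR-181a-1-3p, mmu-miR-181a-2-3p and mmu-miR-181c-3p), out of 1978 mature miRNA names counted in cultured mouse neurons (the prefix mmu, for mouse, is left out from here on). The members were chosen by name, with earlier results of these data known. All 7 passed the filter on low counts that left 483 miRNAs for testing. Of the 10 names of the family in the counts, miR-181b-1-3p was also tested, while miR-181b-2-3p, with 0 to 2 counts in a library, and miR-181d-3p, with 0 to 15, were not. RNA came from primary cultures of perinatal mouse forebrain neurons that had been transduced with lentivirus, and small RNAs were sequenced from 4 libraries in each of 4 groups. The groups received an shRNA (shRNA), the same hairpin with 2 point mutations (shRNA_2bp), the hairpin with 5 point mutations (shRNA_5bp) or a vector without a hairpin (Empty_Vector). The comparisons ask which miRNAs differ when neurons carry a hairpin and whether mutated forms of that hairpin do the same. The labels give no strain, genotype, age, time after transduction or promoter, they do not name the target of the shRNA, and they do not say whether the 4 libraries of a group came from separate cultures, so the p-values measure the spread between these libraries, which may be technical.

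A miRNA is cut from a hairpin precursor by Drosha and Dicer, and 1 strand of the resulting duplex, the guide, is kept by an Argonaute protein and pairs with target mRNAs mainly through its seed, bases 2 to 8, while the other strand is usually degraded. The miR-181 guides are abundant in brain and in lymphocytes. In T cells miR-181a tunes the strength of antigen receptor signals, and in rat hippocampal neurons it has been found at synapses, where it represses an AMPA receptor subunit. An shRNA is a hairpin of the same general shape, made to silence a chosen gene.

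The mature sequences are printed from RefSeq (GRCm38.p6, 7 of 7 members matched) because the results turn on how alike the members are and on which arm of a hairpin each one is. They are given 5′ to 3′ with the seed in capitals.
miR-181a-5p: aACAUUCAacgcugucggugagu
miR-181b-5p: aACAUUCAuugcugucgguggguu
miR-181c-5p: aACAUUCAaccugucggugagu
miR-181d-5p: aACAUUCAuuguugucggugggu
miR-181a-1-3p: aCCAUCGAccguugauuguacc
miR-181a-2-3p: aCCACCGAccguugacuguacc
miR-181c-3p: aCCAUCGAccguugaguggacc
The 4 guides share the seed ACAUUCA with no other of 1679 mature names in the RefSeq table. Counted from 1 at the 5′ end of the first-named strand, miR-181a-5p and miR-181b-5p differ by A9U, C10U and A21G and by a last base that only miR-181b-5p has. Over their shared length, miR-181b-5p and miR-181d-5p differ by C12U alone. The opposite arms miR-181a-1-3p and miR-181c-3p share the seed CCAUCGA and differ by U16G and U19G. Within the seed, miR-181a-1-3p and miR-181a-2-3p differ by U5C, and outside it by U16C. How reads that fit 2 such names were assigned is not given in the sources used here, so the split between near-identical names, above all miR-181b-5p and miR-181d-5p, is uncertain. No 2 names of the family had identical counts.

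The hairpins of miR-181a are shown next, with both mature arms in capitals, because they release the same guide but different opposite arms.
Mir181a-1: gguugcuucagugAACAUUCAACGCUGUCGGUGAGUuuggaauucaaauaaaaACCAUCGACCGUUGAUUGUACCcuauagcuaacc
Mir181a-2: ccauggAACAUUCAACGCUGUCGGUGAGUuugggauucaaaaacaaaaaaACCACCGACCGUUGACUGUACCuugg
A count of miR-181a-5p therefore sums over both hairpins, as does a count of miR-181b-5p, whereas each 3p arm comes from 1 hairpin. On GRCm38.p6, Mir181a-1 lies at chr1:137966455-137966541 on the plus strand and Mir181b-1 starts 97 bases after it, at chr1:137966639-137966718. In GENCODE M21 both lie within an intron of Gm4258, a noncoding transcript of the same strand, and overlap exonic sequence of the lincRNA A430106G13Rik. Mir181a-2 lies at chr2:38852735-38852810 on the plus strand and Mir181b-2 at chr2:38853830-38853918, with 1019 bases between them. Both are within an intron of Nr6a1, which encodes a nuclear receptor and is read from the other strand. Mir181d (chr8:84178716-84178787) and Mir181c (chr8:84178873-84178961) lie on the minus strand, 85 bases apart, within an intron of Nanos3, which encodes an RNA-binding protein of germ cells and is read from the same strand.

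Library totals were 5304461 to 8061785 counts with shRNA, 1177068 to 2097782 with shRNA_2bp, 831859 to 2496036 with shRNA_5bp and 2760894 to 11139163 with Empty_Vector, so values of scarce members with shRNA_2bp and shRNA_5bp rest on fewer counts. The unit of level is CPM (counts per M reads of library size after edgeR's TMM scaling), and fold changes are log2 values ± standard error from edgeR's quasi-likelihood test, with p adjusted by Benjamini and Hochberg over the 483 miRNAs. The words rose, fell and changed are kept for an adjusted p below 0.05. Without the scaling, on library totals alone, the median log2 change of all tested miRNAs moved to 0.18, 0.19 and 0.30 for shRNA, shRNA_2bp and shRNA_5bp over Empty_Vector, against 0.04, 0.01 and 0.06 with it, and gave 149 rises and 44 falls, 206 and 127, and 216 and 81, against 95 and 73, 161 and 156, and 152 and 129. With no filter on low counts the split leaned the other way for shRNA_2bp (123 rises and 199 falls) and shRNA_5bp (118 and 191), and for shRNA_5bp minus shRNA it was 94 and 185, against 137 and 119. With only the 2 groups in the fit, shRNA_5bp minus shRNA_2bp gave 124 and 126, against 178 and 110. Changes below are relative to the scaled values.

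The family took a larger share of each hairpin library than of each vector library. These are shares of library totals without the scaling. On those totals the median log2 change of all tested miRNAs was 0.18, 0.19 and 0.30 for shRNA, shRNA_2bp and shRNA_5bp. The 7 members together held 2.09 ± 0.11% of counts with shRNA, 2.55 ± 0.21% with shRNA_2bp and 2.69 ± 0.06% with shRNA_5bp, against 1.43 ± 0.12% with Empty_Vector (SD, n = 4 each). The lowest hairpin library held 1.96% and the highest Empty_Vector library 1.59%. This share was mostly miR-181a-5p, which made up 58.7%, 62.0% and 57.0% of the family's counts with shRNA, shRNA_2bp and shRNA_5bp, against 46.3% with Empty_Vector.

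With shRNA, 3 of the 7 members rose and 1 fell, in a comparison where 34.8% of all tested miRNAs changed, 19.7% rising and 15.1% falling. With shRNA_2bp, 6 rose and none fell, where 65.6% of all miRNAs changed, 33.3% rising and 32.3% falling. With shRNA_5bp, 5 rose and none fell, where 58.2% changed, 31.5% rising and 26.7% falling. Median log2 changes of the 7 members were −0.01, 0.68 and 0.38 for these hairpins, beside 0.04, 0.01 and 0.06 for all tested miRNAs. The libraries did not overlap those of Empty_Vector in 3, 5 and 5 of the 7 members, where 32.9%, 59.2% and 50.3% of all miRNAs had no overlap. Since changed miRNAs were common in every comparison, these counts describe the members and do not set the family apart, and the 3 comparisons share their Empty_Vector libraries.

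miR-181a-5p, the most abundant member, rose with all 3 hairpins. Its level in the 4 libraries was 12978, 13203, 11565 and 11229.6 CPM with shRNA. It was 15659.5, 16868, 14917 and 14071 CPM with shRNA_2bp. It was 14833, 14272, 14205 and 13853 CPM with shRNA_5bp, against 8123, 7427, 6961 and 6657 CPM with Empty_Vector. Every hairpin library lay above every Empty_Vector library. The rises over Empty_Vector were 1.68-fold with shRNA (log2 0.75 ± 0.06, adjusted p = 2.84e-10), 2.11-fold with shRNA_2bp (1.08 ± 0.07, adjusted p = 1.66e-14) and 1.96-fold with shRNA_5bp (0.97 ± 0.07, adjusted p = 3.53e-13). By mean level miR-181a-5p was the 16th, 11th and 14th of the 483 tested miRNAs with shRNA, shRNA_2bp and shRNA_5bp, and the 20th with Empty_Vector. In bulk RNA, a change in the share of cells of a type and a change of a miRNA per cell cannot be told apart.

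miR-181c-5p shares the seed and differs from miR-181a-5p by an edit distance of 1, and it too rose with every hairpin, although for every 100 counts of miR-181a-5p there were 0.549, 0.389 and 0.487 of it with shRNA, shRNA_2bp and shRNA_5bp and 0.504 with Empty_Vector. It was at 60.7, 65.0, 70.1 and 70.7 CPM with shRNA and at 50.3, 63.3, 59.6 and 64.6 CPM with shRNA_2bp. With shRNA_5bp it was at 49.8, 79.1, 57.5 and 90.6 CPM, from 49, 213, 50 and 149 counts, against 45.5, 34.3, 29.1 and 38.2 CPM with Empty_Vector. No hairpin library reached down to the highest Empty_Vector library, but the shRNA_5bp libraries were widely spread. The log2 changes over Empty_Vector were 0.84 ± 0.14 with shRNA (adjusted p = 2.13e-05), 0.68 ± 0.16 with shRNA_2bp (adjusted p = 0.000394) and 0.95 ± 0.15 with shRNA_5bp (adjusted p = 5.27e-06). That 1 edit is a missing base, and placed side by side without a gap, miR-181a-5p and miR-181c-5p differ at 11 positions. Whether reads of the far more abundant miR-181a-5p were counted as miR-181c-5p was not tested.

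miR-181b-5p, the second most abundant member and encoded beside miR-181a in both clusters, stayed closer to its Empty_Vector level. It was at 6764, 6835, 5908 and 5930.3 CPM with shRNA and at 7335, 7692, 6557 and 6949 CPM with shRNA_2bp. With shRNA_5bp it was at 8445, 7885, 7969 and 7539 CPM, against 7226, 6502, 6067 and 5768 CPM with Empty_Vector. Only the shRNA_5bp libraries lay wholly above those of Empty_Vector. The change with shRNA was −0.01 on the log2 scale, with a 95% interval of −0.15 to 0.14 (adjusted p = 0.951). It rose by 0.32 ± 0.07 with shRNA_5bp (adjusted p = 0.000188) and by 0.16 ± 0.07 with shRNA_2bp, where the groups overlapped (adjusted p = 0.0396). The call with shRNA_2bp was lost without Empty_Vector replicate 4, any single shRNA_2bp library or shRNA_5bp replicate 2 (log2 0.05 to 0.16, adjusted p = 0.0656 to 0.503). With no filter on low counts, 0.06 with shRNA_2bp and 0.09 with shRNA_5bp remained, neither of which passed.

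miR-181d-5p, which differs from miR-181b-5p by 1 base over their shared length, stood highest with shRNA_5bp. It was at 2122, 2103, 2049 and 1939.8 CPM with shRNA and at 2008, 1955, 1848 and 1861 CPM with shRNA_2bp. With shRNA_5bp it was at 2752, 2476, 2558 and 2548 CPM, against 1993, 1858, 1779.9 and 1762 CPM with Empty_Vector. The shRNA_5bp libraries were all above the rest, whereas the shRNA and shRNA_2bp libraries overlapped those of Empty_Vector. The log2 changes were 0.48 ± 0.06 with shRNA_5bp (adjusted p = 1.51e-08), 0.15 ± 0.06 with shRNA (adjusted p = 0.0327) and 0.05 with shRNA_2bp, with a 95% interval of −0.07 to 0.18 (adjusted p = 0.399). The small rise with shRNA did not pass without Empty_Vector replicate 4, shRNA_2bp replicate 3 or 4 or shRNA_5bp replicate 2 (0.09 to 0.11, adjusted p = 0.135 to 0.268). It also did not pass with DESeq2, with its size factors, with no filter or with only these 2 groups in the fit (0.12 to 0.15). On library totals alone the change with shRNA_2bp was 0.24 (adjusted p = 0.000448), close to the 0.19 by which the median of all miRNAs stood above 0 there.

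**Figure D1:**
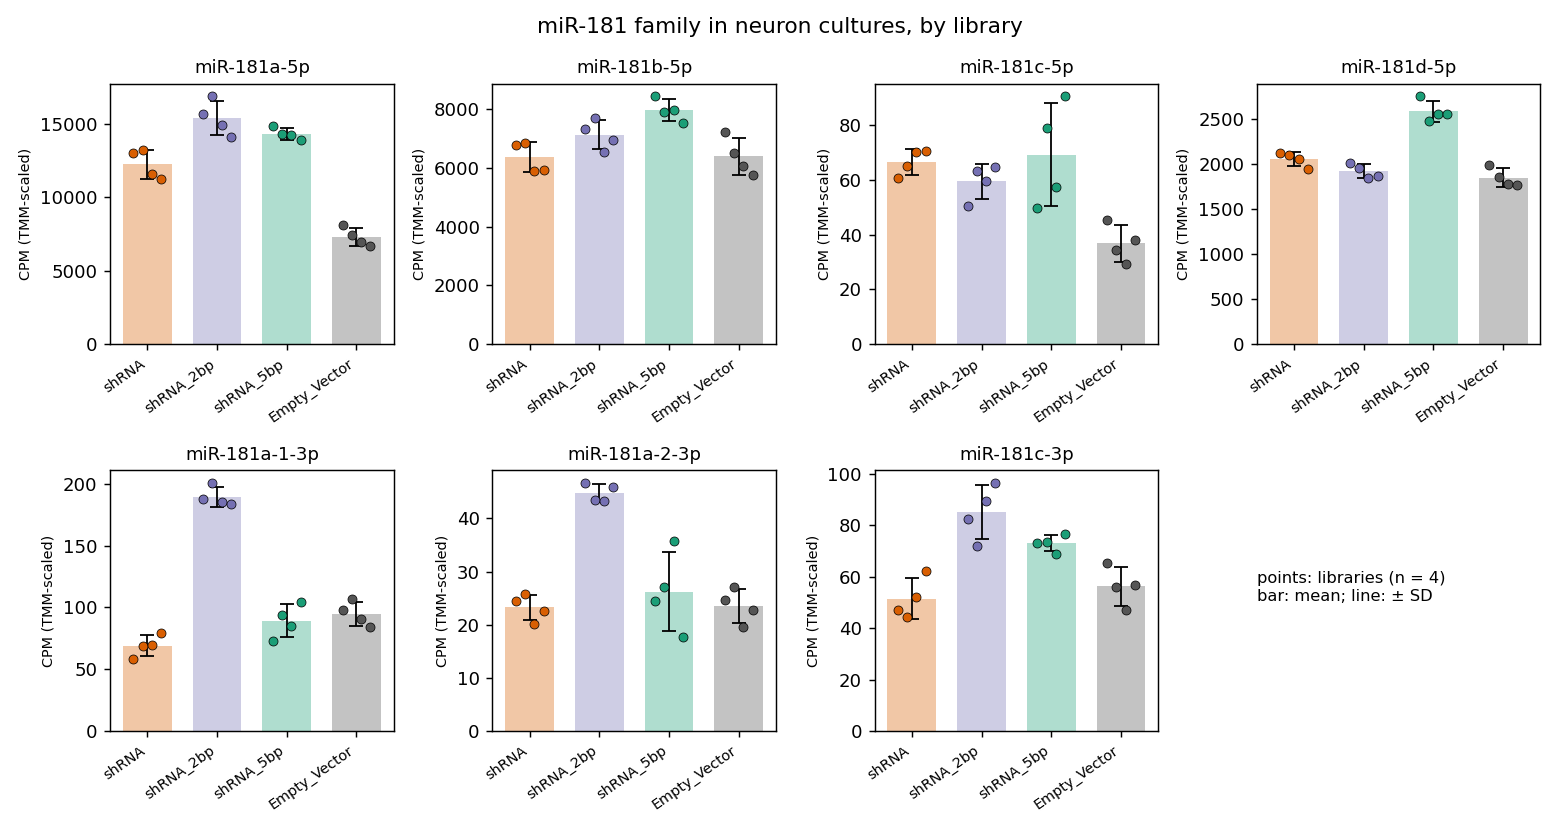
Level of each of the 7 listed members in every library, in CPM, with 1 point per library, a bar for the group mean and a line for ± SD. miR-181a-5p and miR-181c-5p are higher in every library of the 3 hairpin groups than in any Empty_Vector library, and the 3p arms have their highest group means with shRNA_2bp.

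**Figure D2:**
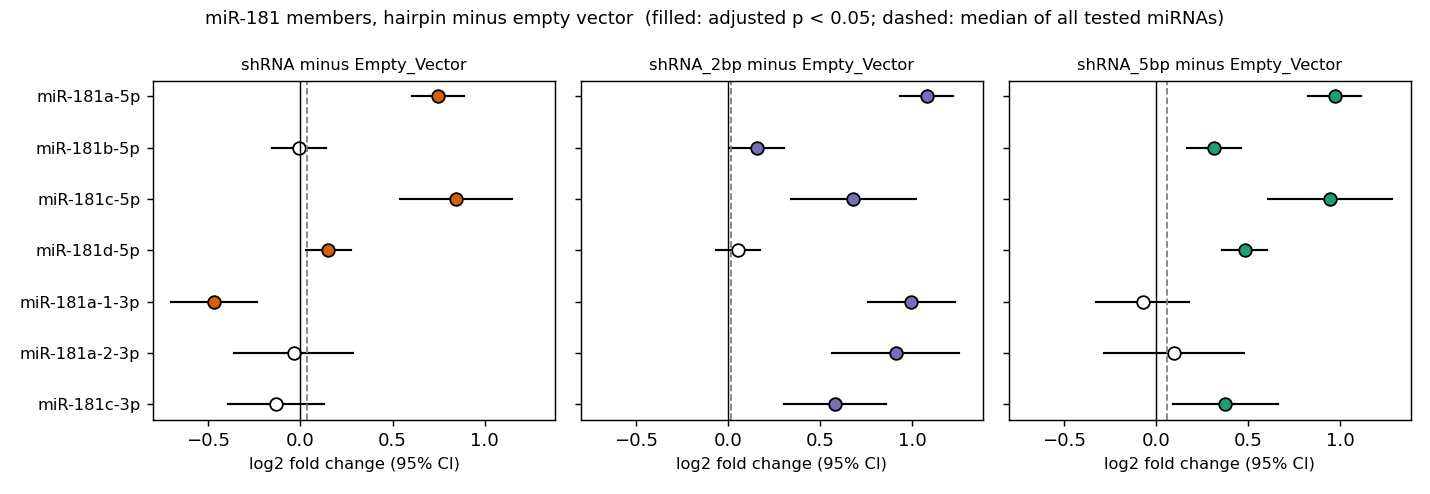
Log2 change of each member over Empty_Vector from edgeR with its 95% interval, built from the standard error, for shRNA, shRNA_2bp and shRNA_5bp. The intervals of miR-181a-5p and miR-181c-5p lie above 0 with all 3 hairpins, while those of miR-181a-1-3p lie below 0 with shRNA, above 0 with shRNA_2bp and across 0 with shRNA_5bp.

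The opposite arms divided the hairpins in another way, and all 3 rose with shRNA_2bp. miR-181a-1-3p, the opposite arm of the chromosome 1 hairpin of miR-181a, was at 58.1, 69.2, 69.4 and 78.9 CPM with shRNA and at 188.0, 200.8, 185.2 and 183.3 CPM with shRNA_2bp. It was at 73.1, 93.9, 85.1 and 104.6 CPM with shRNA_5bp, against 98.3, 106.9, 90.5 and 84.3 CPM with Empty_Vector. The shRNA libraries lay below, and the shRNA_2bp libraries above, all Empty_Vector libraries, and the shRNA_5bp libraries overlapped them. It fell with shRNA (−0.47 ± 0.11, adjusted p = 0.000887) and rose with shRNA_2bp (0.99 ± 0.11, adjusted p = 4.55e-09). The change with shRNA_5bp was −0.07 ± 0.12 (adjusted p = 0.608). With no filter on low counts it was −0.31 (adjusted p = 0.0425), in a fit whose median over all miRNAs was −0.28, and on library totals alone it was 0.18, so its direction with shRNA_5bp depended on the scaling.

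miR-181a-2-3p, the arm of the chromosome 2 hairpin, was at 24.5, 25.7, 20.1 and 22.6 CPM with shRNA and at 46.7, 43.4, 43.3 and 45.8 CPM with shRNA_2bp. It was at 24.4, 27.1, 35.7 and 17.6 CPM with shRNA_5bp, from 24, 73, 31 and 29 counts, against 24.6, 27.1, 19.5 and 22.8 CPM with Empty_Vector. Only the shRNA_2bp libraries stood apart. It rose with shRNA_2bp by 0.91 ± 0.16 (adjusted p = 1.34e-05), and the changes with shRNA (−0.04, adjusted p = 0.884) and shRNA_5bp (0.10, adjusted p = 0.640) did not pass.

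miR-181c-3p, the opposite arm of miR-181c, was at 47.2, 44.4, 52.0 and 62.4 CPM with shRNA and at 82.6, 71.9, 89.4 and 96.6 CPM with shRNA_2bp. It was at 73.1, 73.5, 69.0 and 76.6 CPM with shRNA_5bp, against 65.4, 55.9, 47.1 and 56.6 CPM with Empty_Vector. The libraries of shRNA_2bp and shRNA_5bp lay above those of Empty_Vector, and those of shRNA overlapped them. It rose with shRNA_2bp (0.58 ± 0.13, adjusted p = 0.000259) and with shRNA_5bp (0.38 ± 0.13, adjusted p = 0.0149), and the change with shRNA was −0.13 (adjusted p = 0.431). The call with shRNA_5bp was lost without Empty_Vector replicate 2 or 3, shRNA replicate 1, 2 or 3, or shRNA_5bp replicate 2 or 4 (0.23 to 0.33, adjusted p = 0.0531 to 0.158). It was lost as well with no filter (0.14) and with only these 2 groups in the fit (0.29). Among names outside the list, miR-181b-1-3p averaged 1.63, 4.51 and 2.54 CPM with shRNA, shRNA_2bp and shRNA_5bp against 2.46 CPM with Empty_Vector. It rose with shRNA_2bp (0.88, adjusted p = 0.0472) on 4 to 11 counts a library, where the groups overlapped. That call was not checked under the alternatives.

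The ratio of a 3p arm to its guide, taken within a library, does not depend on scaling between libraries. For miR-181a it sets the 3p arm of 1 hairpin against a guide that comes from both. For every 100 counts of miR-181a-5p there were 0.568 ± 0.109 of miR-181a-1-3p with shRNA, 1.23 ± 0.05 with shRNA_2bp and 0.626 ± 0.110 with shRNA_5bp, against 1.30 ± 0.10 with Empty_Vector (SD, n = 4 each). For miR-181a-2-3p there were 0.190 ± 0.012 with shRNA, 0.293 ± 0.028 with shRNA_2bp and 0.183 ± 0.052 with shRNA_5bp, against 0.323 ± 0.038 with Empty_Vector. The libraries of shRNA and shRNA_5bp lay below those of Empty_Vector in both ratios, and those of shRNA_2bp overlapped them. For miR-181c, 77.1 ± 8.4 counts of the 3p arm stood beside every 100 of the 5p arm with shRNA, 144 ± 22 with shRNA_2bp and 111 ± 28 with shRNA_5bp, against 154 ± 10 with Empty_Vector. In every library its 5p arm was the more abundant one with shRNA, and the scarcer one with shRNA_2bp and with Empty_Vector. The word guide is used here for all 5p arms by convention, whichever arm was the more abundant.

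In a two-sided exact permutation test of each ratio, the smallest p that 4 libraries against 4 allow is 0.0286, and adjusted over the 21 tests of 7 ratios in 3 comparisons with Empty_Vector it became 0.0545, so no ratio passed there. A limma test of the log2 3p over 5p ratio across all 139 pairs of arms, which was added after that outcome was known, shares the spread between libraries over all pairs, and both miR-181a ratios share their 5p arm. In it all 3 ratios fell with shRNA, with log2 changes of −1.21 ± 0.13 for miR-181a-1 (adjusted p = 1.56e-07), −0.76 ± 0.18 for miR-181a-2 (adjusted p = 0.00254) and −1.0 ± 0.17 for miR-181c (adjusted p = 0.000103). Over all pairs 16.5% changed there, 10.1% falling and 6.47% rising, the median change was −0.04, and these 3 listed pairs stood at ranks 3, 9 and 5 from the lowest of 139. All 3 fell with shRNA_5bp as well, with log2 changes of −1.07 ± 0.13 (adjusted p = 7.12e-07), −0.84 ± 0.18 (adjusted p = 0.000364) and −0.50 ± 0.17 (adjusted p = 0.0201), where 41% of all pairs changed, 20.1% falling and 20.9% rising. The miR-181c ratio did not pass there without shRNA_5bp replicate 2 (−0.43, adjusted p = 0.0694) or 4 (−0.38, adjusted p = 0.0836). With shRNA_2bp none of the 3 passed, where 37.4% of all pairs changed, 15.1% falling and 22.3% rising. Their log2 changes were −0.08, −0.13 and −0.11, with 95% intervals of −0.35 to 0.20, −0.50 to 0.23 and −0.46 to 0.25. The difference between shRNA_2bp and the other hairpins was itself tested in the same fit. The ratios over those with shRNA were 1.14, 0.63 and 0.89 higher with shRNA_2bp (adjusted p = 1.36e-07, 0.00533 and 0.00016), where 44.6% of pairs changed, 28.1% rising and 16.5% falling. With shRNA_5bp minus shRNA_2bp they were −0.99 and −0.70 for the miR-181a pairs (adjusted p = 1.35e-06 and 0.00194) and −0.40 for miR-181c (adjusted p = 0.0597), where 44.6% changed too, 25.9% falling and 18.7% rising. The miR-181c ratio passed in that comparison without shRNA_2bp replicate 2 (−0.51, adjusted p = 0.0267) or shRNA_5bp replicate 1 (−0.54, adjusted p = 0.0113).

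**Figure D3:**
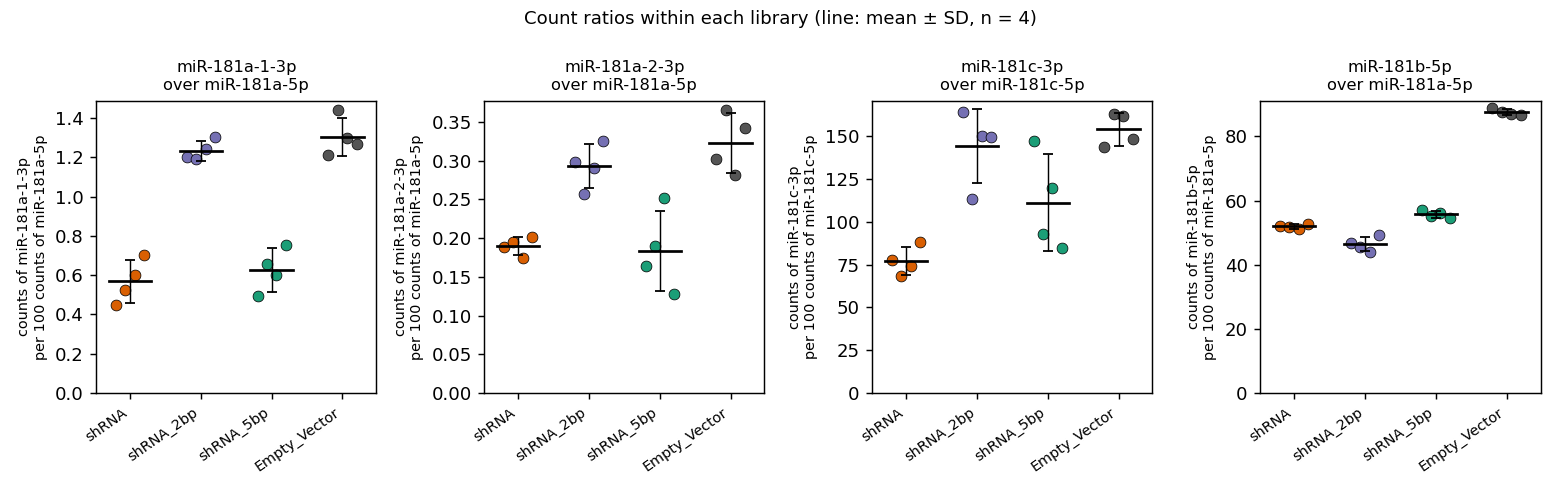
Ratios of members within each library, as counts of the first-named member per 100 of the second, with 1 point per library, a bar for the group mean and a line for ± SD. The 3p over 5p ratios of miR-181a lie lower with shRNA and shRNA_5bp than with Empty_Vector and overlap it with shRNA_2bp, while miR-181b-5p per 100 of miR-181a-5p is lower with all 3 hairpins.

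**Figure D4:**
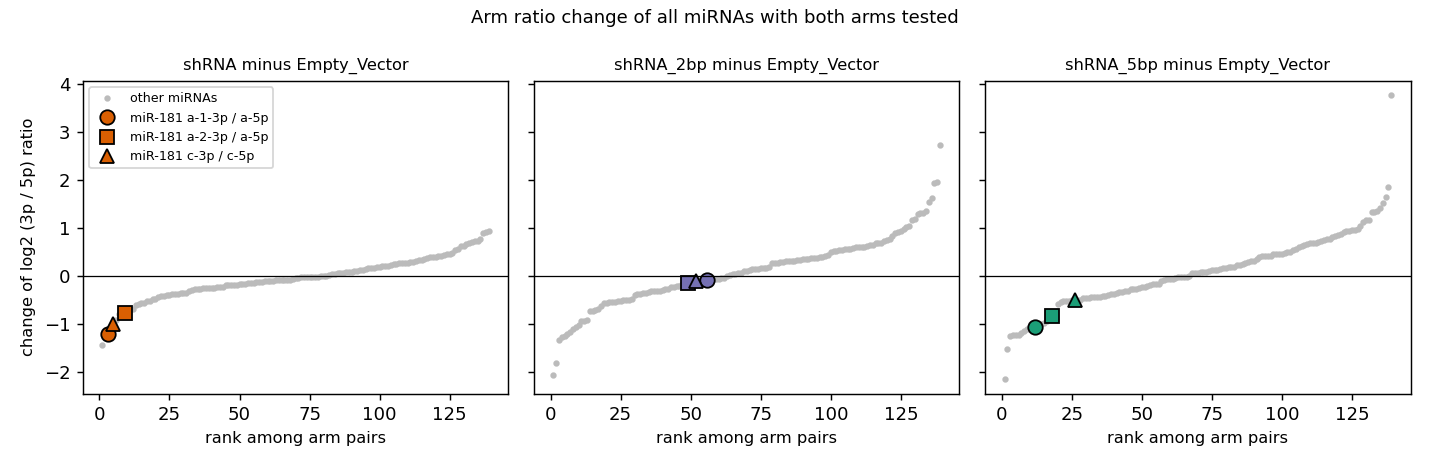
Log2 change of the 3p over 5p ratio for all 139 pairs of arms, ranked from the lowest, in each hairpin group over Empty_Vector, with the listed miR-181 pairs marked. The marked pairs stand at ranks 3, 5 and 9 with shRNA and 12, 18 and 26 with shRNA_5bp.

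The amount of miR-181b guide relative to miR-181a guide was lower in every hairpin library than in every Empty_Vector library. miR-181b-5p stood at 51.9 ± 0.7 counts per 100 of miR-181a-5p with shRNA, 46.4 ± 2.3 with shRNA_2bp and 55.7 ± 1.1 with shRNA_5bp, against 87.6 ± 1.0 with Empty_Vector (SD, n = 4 each). The highest hairpin library was at 56.9 and the lowest Empty_Vector library at 86.7. The differences in log2 ratio from Empty_Vector were −0.75, −0.92 and −0.65 (exact permutation p = 0.0286 each, adjusted p = 0.0545). The opposite arms of the miR-181a hairpins come from different loci. There were 299.8 ± 55.6 counts of miR-181a-1-3p per 100 of miR-181a-2-3p with shRNA, 423 ± 29 with shRNA_2bp and 369.6 ± 155.4 with shRNA_5bp, against 407 ± 40 with Empty_Vector. Only the shRNA libraries lay apart from those of Empty_Vector in this ratio (log2 −0.45, exact permutation p = 0.0286, adjusted p = 0.0545). Whether it follows the output of the loci or how much of each arm is kept was not tested. miR-181d-5p per 100 of its neighbour miR-181c-5p was lower without overlap with shRNA (log2 −0.72) and shRNA_2bp (−0.65) and overlapped with shRNA_5bp (−0.41, exact permutation p = 0.2). miR-181c-5p per 100 of miR-181a-5p overlapped Empty_Vector in every hairpin group (0.12, −0.37 and −0.08). In all, 6, 2 and 3 of the 7 ratios had no overlap with Empty_Vector for shRNA, shRNA_2bp and shRNA_5bp. Several of the 7 share a member, and those between loci or guides have no share over all miRNAs to stand beside. The counts over all 7 therefore describe the members and do not set the family apart. Of the 3 ratios of a 3p arm to its guide, 3, 0 and 2 had none, beside 23.7%, 36% and 41.7% of all 139 such pairs.

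In the design text the mutated hairpins are the shRNA with point mutations. The 3 pairs of hairpin groups were compared in the same fit, each with p adjusted over all 483 miRNAs. Between shRNA_2bp and shRNA, 5 of the 7 members were higher with shRNA_2bp and none lower, where 64.6% of all miRNAs changed, 31.1% rising and 33.5% falling. The largest difference was in miR-181a-1-3p (log2 1.46 ± 0.11, adjusted p = 1.75e-12), followed by miR-181a-2-3p (0.94 ± 0.16, adjusted p = 6.93e-06), miR-181c-3p (0.71 ± 0.13, adjusted p = 1.77e-05) and miR-181a-5p (0.33 ± 0.07, adjusted p = 6.92e-05). These 4 had no overlap, as had 58.4% of all miRNAs. miR-181b-5p passed at 0.17 ± 0.07 with overlapping libraries (adjusted p = 0.0324). That call was lost without Empty_Vector replicate 2, shRNA replicate 3 or 4, shRNA_2bp replicate 1, 2 or 4 or shRNA_5bp replicate 2 (0.11 to 0.16, adjusted p = 0.0533 to 0.174). It was lost as well with no filter on low counts (0.09, adjusted p = 0.390). miR-181c-5p (−0.16, 95% interval −0.49 to 0.16) and miR-181d-5p (−0.10, adjusted p = 0.126) did not pass, though miR-181d-5p did with no filter (−0.18, adjusted p = 0.0403).

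Between shRNA_5bp and shRNA_2bp, miR-181d-5p was 0.43 ± 0.06 higher with shRNA_5bp (adjusted p = 1.54e-07), while miR-181a-1-3p was 1.07 lower (log2 −1.07 ± 0.12, adjusted p = 7.8e-09) and miR-181a-2-3p was lower too (−0.81 ± 0.18, adjusted p = 0.000351). In that comparison 2 members rose and 2 fell, where 59.6% of all miRNAs changed, 36.9% rising and 22.8% falling, and the median change of all miRNAs was 0.16. The second rise, miR-181b-5p at 0.16 ± 0.07 (adjusted p = 0.0452), was no larger than that median and did not pass with DESeq2 (0.09), with its size factors (0.09), with no filter (0.03) or with only these 2 groups in the fit, nor when 1 of 11 of the 16 libraries was left out (0.03 to 0.17). Those 11 were Empty_Vector replicates 1, 2 and 3, shRNA replicates 1, 2 and 3, shRNA_2bp replicates 1 and 3 and shRNA_5bp replicates 1, 3 and 4. miR-181a-5p did not pass (−0.11, 95% interval −0.25 to 0.04, adjusted p = 0.167). It did pass as a fall with DESeq2 (−0.18), its size factors (−0.18), no filter (−0.24), only these 2 groups (−0.26) or without Empty_Vector replicate 2 or 3, shRNA replicate 1, 2 or 3 or shRNA_5bp replicate 4 (−0.23 in each). miR-181c-3p (−0.20, adjusted p = 0.209) passed as a fall with only these 2 groups (−0.36) and without Empty_Vector replicate 3 or shRNA replicate 1 or 2 (−0.33 in each). miR-181c-5p (0.27, 95% interval −0.09 to 0.62) passed as a rise without shRNA_5bp replicate 1 (0.39, adjusted p = 0.0423).

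Between shRNA_5bp and shRNA, 5 members were higher with shRNA_5bp and none lower, where 53% of all miRNAs changed, 28.4% rising and 24.6% falling. The log2 differences were 0.33 ± 0.06 for miR-181d-5p (adjusted p = 1e-05), 0.32 ± 0.07 for miR-181b-5p (adjusted p = 0.000173), 0.51 ± 0.13 for miR-181c-3p (adjusted p = 0.00157), 0.40 ± 0.12 for miR-181a-1-3p (adjusted p = 0.00568) and 0.22 ± 0.07 for miR-181a-5p (adjusted p = 0.00479). The libraries did not overlap in 4 of them, as in 48.7% of all miRNAs, and overlapped for miR-181a-1-3p. In this comparison alone of the 6, the count of changed members moved by more than 1.5 times under an alternative. With no filter on low counts none passed, in a fit whose median over all miRNAs was −0.28, and 2 or 3 passed without Empty_Vector replicate 2 or 3, shRNA replicate 1, 2 or 3 or shRNA_5bp replicate 4. With 1 of those 6 libraries left out, miR-181a-5p was at 0.04 to 0.10 and miR-181a-1-3p at 0.16 to 0.25. Each edgeR fit with a library left out repeated the filter and the scaling, so libraries outside a comparison can move it. The standard errors do not cover such shifts. Without shRNA replicate 3 miR-181b-5p was at 0.14 (adjusted p = 0.0953), and without shRNA replicate 1 or 2 or shRNA_5bp replicate 4 miR-181c-3p was at 0.29 to 0.34. miR-181c-5p (0.10, 95% interval −0.22 to 0.43) and miR-181a-2-3p (0.14, adjusted p = 0.527) did not pass. Of the arm ratios, miR-181c alone passed in the limma test (0.50 ± 0.17, adjusted p = 0.0301), where 28.8% of all pairs changed, 18% rising and 10.8% falling, and it did not pass without shRNA replicate 1, 2 or 3 or shRNA_5bp replicate 1 or 3 (0.35 to 0.50).

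**Figure D5:**
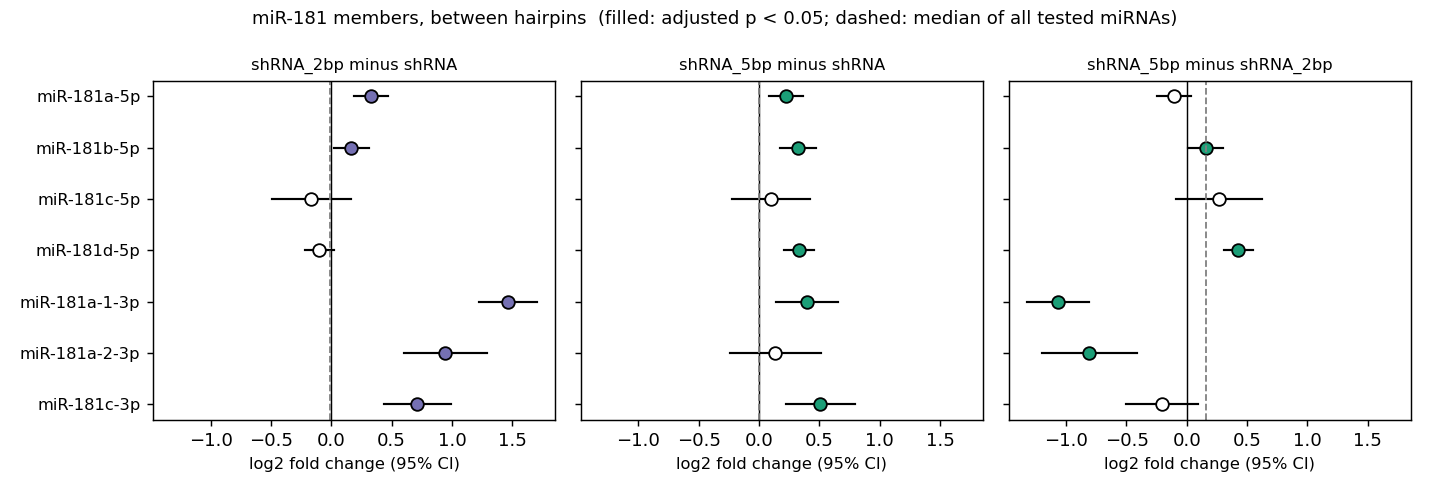
Log2 difference of each member between pairs of hairpin groups from edgeR with its 95% interval, built from the standard error. The 3p arms lie highest for shRNA_2bp minus shRNA, and miR-181a-1-3p and miR-181a-2-3p lie below 0 for shRNA_5bp minus shRNA_2bp.

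Among 175 other tested miRNAs with a mean of at least 100 CPM, the pattern of miR-181a-5p over the 16 libraries was matched most closely by miR-672-5p, at a root mean square distance of 0.18 in log2 CPM taken relative to the Empty_Vector mean. Next were miR-30a-5p (0.31), miR-132-3p (0.34), miR-30a-3p (0.36) and miR-140-3p (0.38), and the median distance of the candidates was 0.93. miR-672-5p was 0.92, 0.88 and 0.94 higher on the log2 scale with shRNA, shRNA_2bp and shRNA_5bp than with Empty_Vector. Within the family miR-181c-5p was nearest at 0.32, and miR-181a-1-3p farthest at 0.83. These distances are descriptions over libraries that share the same controls.

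Of 16 miRNAs studied at synapses or in neuronal plasticity, the setting in which miR-181a has been studied in neurons, 6 rose and 4 fell with shRNA, 7 rose and 6 fell with shRNA_2bp, and 6 rose and 3 fell with shRNA_5bp. Their median log2 changes were 0.06, 0.13 and 0.09. Over all tested miRNAs the shares rising and falling were 19.7% and 15.1%, 33.3% and 32.3%, and 31.5% and 26.7%, and the medians were 0.04, 0.01 and 0.06. miR-132-3p, which is induced by neuronal activity, rose with all 3 hairpins, by 0.95, 0.45 and 1.07 with shRNA, shRNA_2bp and shRNA_5bp (adjusted p = 3.59e-12, 1.26e-06 and 1.05e-13). miR-128-3p, the dominant neuronal miRNA, fell with all 3 (−0.37, −0.83 and −0.81). miR-124-3p rose with shRNA (0.44, adjusted p = 1.19e-05) and shRNA_2bp (0.33, adjusted p = 0.00021) and was at 0.12 with shRNA_5bp (adjusted p = 0.152). miR-9-5p rose with shRNA_2bp (0.42) and shRNA_5bp (0.20) and was at −0.01 with shRNA (adjusted p = 0.917). miR-125b-5p rose with shRNA_2bp (0.39), and its changes with shRNA (−0.06) and shRNA_5bp (0.03) did not pass. miR-218-5p fell with shRNA, shRNA_2bp and shRNA_5bp (log2 −0.21, −0.20 and −0.50, adjusted p = 0.04996, 0.0335 and 1.57e-05).

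The cultures carried their neuronal markers, since the 5 neuronal miRNAs of the marker list held 40.4 to 42.2% of counts with shRNA, 34.9 to 36.1% with shRNA_2bp and 34.3 to 37.4% with shRNA_5bp, against 45.6 to 47.3% with Empty_Vector. Of these 5, miR-128-3p had the most counts (22941750 over the 16 libraries) and miR-9-5p the next (4826757). With shRNA 1 of the 5 rose and 2 fell, with shRNA_2bp 2 rose and 3 fell, and with shRNA_5bp 2 rose and 2 fell. Over all tested miRNAs 19.7% rose and 15.1% fell with shRNA, 33.3% and 32.3% with shRNA_2bp, and 31.5% and 26.7% with shRNA_5bp. The 3 names listed as astroglial markers were miR-21a-5p, miR-22-3p and miR-143-3p, of which miR-143-3p is also on the list of vessels and fibroblasts. They summed to 0.196 to 0.229%, 0.354 to 0.385% and 0.213 to 0.253% with shRNA, shRNA_2bp and shRNA_5bp, against 0.162 to 0.179% with Empty_Vector, and 1, 3 and 1 of them rose. The 5 markers of vessels and fibroblasts summed to 0.0636 to 0.0774%, 0.117 to 0.138% and 0.124 to 0.133%, against 0.0634 to 0.0742%, and 0, 2 and 3 of the 4 tested rose. Among all tested miRNAs 19.7%, 33.3% and 31.5% rose in these comparisons. Oligodendrocyte markers reached at most 0.00144% in any library, and the 1 tested did not pass. The microglial and leukocyte miR-142a-3p and miR-223-3p and the erythroid miR-144-3p had no count in any of the 16 libraries, and over all of them miR-142a-5p had 10 counts, miR-150-5p 5 and the erythroid miR-451a 29. The sum of the names listed as astroglial was highest with shRNA_2bp, where the 3p arms were highest too. The sum of the vessel and fibroblast names was higher with shRNA_2bp and shRNA_5bp than with Empty_Vector without overlap. In it miR-126a-3p had the most counts (51231 over the 16 libraries) and miR-143-3p the next (2609). Whether these sums follow the number of such cells, and what part such cells have in the results of the family, was not tested.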

How the data were processed

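The deposited table gives raw counts per mature miRNA, 1978 names by 16 libraries, as the authors made them. Per the labels' protocols, 100 ng of total RNA went through a small RNA library kit with 15 PCR cycles and size selection. Per the submitters' processing notes, the tools were Bowtie 1.1.1, cutadapt 1.15, edgeR, Trim Galore 0.6.0 and bcl2fastq 2.20.0.422, with build GRCm38.p6, and mismatch and multi-mapping settings are not given in the sources used here. Reads carry no molecular identifiers, so copies made in the PCR cycles cannot be told from separate molecules.

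All 16 libraries were fitted together in edgeR 4.0.16 (R 4.3.3), with filterByExpr, trimmed mean of M values, a robust quasi-likelihood F test, 12 residual degrees of freedom and 1 coefficient per group. A standard error is the fold change divided by the root of F. The filter left out 1495 names, and the tested ones held at least 99.9% of counts in every library. Arm and locus ratios used counts plus 0.5 and a two-sided exact permutation test. The limma 3.58.1 test of 139 arm ratios was added after the values were seen. DESeq2 1.42.0, other scalings, no filter, 2 groups only, a replicate block and leaving out each library were tried, and the scripts were tested on simulated data. The members and lists were chosen with earlier results of these data known. All listed members are named; of the synapse list, up to 4 changed miRNAs per comparison with Empty_Vector, the most abundant first; and the 5 miRNAs closest to miR-181a-5p.

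Libraries sharing a replicate number deviated together over 360 miRNAs of at least 10 CPM, with every correlation over 0.1, for shRNA with Empty_Vector (0.116 to 0.265), shRNA_2bp with Empty_Vector (0.103 to 0.167) and shRNA_2bp with shRNA (0.165 to 0.224). The 3 comparisons with shRNA_5bp had correlations below that (lowest −0.052, −0.033 and −0.018). The number is taken from the titles.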

Additional observations from a re-analysis of the deposited data

How the results depend on the processing

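Counts of changed miRNAs over the whole table stayed within 1.5 times the reported ones in all 132 alternatives, and counts of changed members in 125 of 132. The exceptions were all in shRNA_5bp minus shRNA, where 5 members changed in the reported fit, 0 with no filter on low counts, and 2 to 5 when a single library was left out. In the same comparison the arm ratios changed in 0 to 1 of 3 pairs when a library was left out, against 1 with all. The cause was not tested. For single members, 836 of 924 alternatives left direction and call as reported, 69 lost the call, 19 gained one and none reversed a called direction. Over all 22 alternatives the rises of miR-181a-5p and miR-181c-5p with each hairpin, the rises of the 3p arms with shRNA_2bp, the fall of miR-181a-1-3p with shRNA and the rise of miR-181d-5p with shRNA_5bp passed throughout.

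With a replicate block, 4, 6 and 5 members changed over Empty_Vector with shRNA, shRNA_2bp and shRNA_5bp, 5 in each of shRNA_2bp and shRNA_5bp minus shRNA, and 5 in shRNA_5bp minus shRNA_2bp. The call it added was the fall of miR-181a-5p there (−0.10, adjusted p = 0.0406), in a comparison whose libraries are not shown to be paired, and it changed no other. Depth limits miR-181a-2-3p and miR-181c-5p with shRNA_5bp most, at 24 and 49 counts in the shallowest cases.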
